A study of Bos taurus with 6 samples.

Results

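Cytosolic ribosomal protein genes encode the proteins of the ribosome that translates nuclear messages. They were chosen by symbol: every probeset whose deposited gene symbol began with RPL or RPS and a number (an A, X, Y or L and a further digit could follow), together with RPSA, RPLP0, RPLP1 and RPLP2. Kinases that carry an RPS6K symbol were left out. The choice gave 77 genes, measured by 102 of the 24016 probesets tested, out of 11636 named genes. Each gene was read from 1 probeset, the one with the highest mean log2 value over the arrays. The deposited gene titles of all 77 call them ribosomal proteins, 48 of the large subunit (with the stalk proteins RPLP0, RPLP1 and RPLP2) and 29 of the small subunit (with RPSA). Of 79 canonical cytosolic ribosomal proteins 71 are among the 77, and the other 6 members are paralogs (RPL3L, RPL7L1, RPL22L1, RPL26L1, RPS27L and RPS4Y1). Among the other canonical genes, RPS4X, RPS6, RPS15A, RPS25, RPL22, RPL41 and FAU were not found by the symbol rule and are not analysed here as members.

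A ribosome is built from a small subunit, which reads the messenger RNA, and a large subunit, which joins the amino acids, and each holds a scaffold of ribosomal RNA covered by many small basic proteins. Most of the proteins are needed in equal amounts, and their genes are transcribed at high levels in most cells. Their messages share a pyrimidine tract at the start that ties their translation to growth signals. In cartilage the ribosome serves a tissue whose sparse cells secrete a large collagen and proteoglycan matrix, and several of these genes are used as reference genes in quantitative PCR.

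The samples were slices of normal (grade 1) articular cartilage from the knees of 2 skeletally mature cattle (Bos taurus) aged between 14 and 30 months. The labels used here name no genotype or treatment, and all groups share the same condition. Cores from the weight-bearing femoral condyles were sectioned at 50 µm from the surface down to the calcified cartilage. Sections were pooled within an animal into the superficial zone (SZ, top 10% of sections), the middle zone (MZ, 40%) and the deep zone (DZ, bottom 30%), leaving out about 200 µm at each border. Each zone of each animal was hybridised to 1 Affymetrix bovine array (6 arrays, n = 2 animals per zone), after amplification from 5 ng of total RNA. Values are log2 expression values. A difference is written as zone minus zone on the log2 scale, with the standard error (SE) of a limma model with zone and animal. A gene was called when its Benjamini-Hochberg adjusted p over the 24016 probesets was under 0.05. The levels of different genes come from different probes and are not set against each other here.

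The DZ array of animal 1 stands apart from the other 5 for these genes, and the medians and non-overlap counts that involve DZ, with the values of several named genes, are therefore also given without it. The DZ arrays also carry a different code in the labels from the SZ and MZ arrays, so that code and the deep zone cannot be told apart. Markers of several other cell types read higher on the DZ arrays. Of 10 endothelial markers, 9 read lower in MZ than in DZ in both animals, and 8 read lower in SZ than in DZ. The log2 of the summed level of 6 osteoblast and bone matrix markers was 13.90 and 14.45 in DZ against 7.07 to 9.83 on the other arrays, and that of 12 leukocyte markers 9.54 and 9.41 against 6.92 to 7.26. The sum of 5 osteoclast markers was 11.84 and 11.27 against 8.26 to 8.54, and that of 10 endothelial markers 8.85 and 10.58 against 8.22 to 9.44. On the SZ and MZ arrays the endothelial sum is carried mainly by ERG. It read 9.24 and 8.81 in SZ, 7.77 and 8.84 in MZ, and 7.23 and 8.90 in DZ (animal 1 first). The sum of 5 adipocyte markers was 8.58 and 10.03 against 6.12 to 7.44, and that of 5 synovial and fibroblast markers 10.74 and 10.64 against 8.39 to 9.49. No value in the tables is 0, and the lowest markers on the SZ and MZ arrays, such as PTPRC at 2.12 to 2.24, read under the lower quartile. Not all markers went this way. In both animals 4 of 12 leukocyte markers (CD14, CD79A, CD3E and ITGAM) read higher in SZ than in DZ. So did 1 of 5 adipocyte markers (ADIPOQ) and 1 of 5 synovial and fibroblast markers (PI16). Red cell and muscle markers were not higher in DZ as lists. Their fitted SZ minus DZ was positive for 5 of 5 and 4 of 6 markers (medians 0.46 and 0.19), where 49.5% of named genes were positive. None of these red cell and muscle markers was called in that comparison. As to MZ and DZ, 4 of 6 osteoblast, 2 of 5 osteoclast, 2 of 10 endothelial and 4 of 12 leukocyte markers passed the test as higher in DZ. As to SZ and DZ 5, 2, 3 and 5 of them did. Of all named genes 0.902% and 3.24% passed the test in these comparisons, in either direction. Of the adipocyte markers 1 of 5 (CFD) passed as higher in DZ in both comparisons, and of the synovial and fibroblast markers 2 of 5 (PDPN and CADM1) did in SZ against DZ. The zone markers PRG4, CLU and THBS4 of superficial chondrocytes passed it as higher in SZ than in DZ in 3 of 3 cases, and the sum of 9 general chondrocyte markers lay between 15.06 and 15.72 on all arrays. That sum is carried by its brightest genes, such as COL2A1, and 2 of the 9 passed as lower in SZ than in DZ (LECT1 at -4.80, limma adjusted p = 0.0123, and COL9A2 at -1.74, limma adjusted p = 0.0452). The part of these other cells in the results was not tested. In bulk tissue, fewer cells of a type and less RNA per cell cannot be told apart.

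The level of ribosomal protein transcripts was lowest on the DZ array of animal 1. The median over the 77 genes was 11.80 in animal 1 and 11.76 in animal 2 in SZ, 11.88 and 11.72 in MZ, and 11.45 and 11.69 in DZ. The medians of animal 2 lay close together. For 2 paralogs, RPL3L and RPS4Y1, the values lay near the lower quartile of the arrays (2.71 to 2.87), and they give no firm size of a difference.

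**Figure D1:**
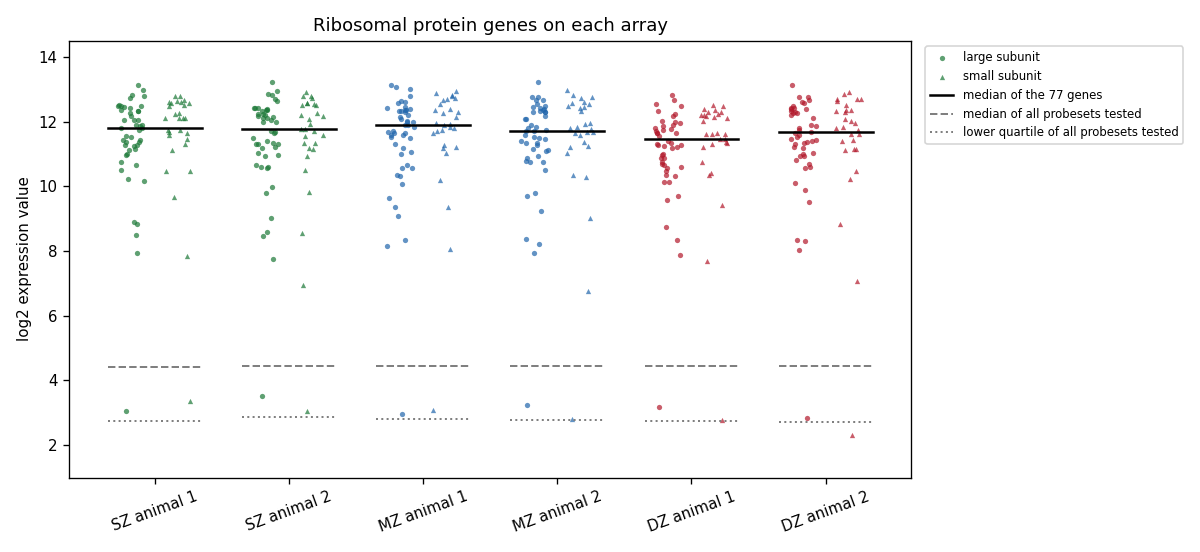
Log2 expression value (vertical axis) of the 77 ribosomal protein genes on each of the 6 arrays (horizontal axis), with circles for the large and triangles for the small subunit. Solid bars mark the median of the 77 genes, dashed and dotted lines the median and lower quartile of all probesets tested. The solid bar is lowest, at 11.45, on the DZ array of animal 1.

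No member passed the test in any zone comparison. Between SZ and MZ 0 of 77 were called, where 0.0416% of all probesets (10) and 0.0344% of named genes were. Between SZ and DZ 0 of 77 were called, against 2.75% of all probesets (660) and 3.24% of named genes. Between MZ and DZ 0 of 77 were called, against 0.704% of all probesets (169) and 0.902% of named genes. The limma F test over the zones also called 0 of 77, against 1.84% of all probesets (443) and 2.15% of named genes. The lowest adjusted p of a member was 0.673 in SZ against MZ (limma, RPL22L1), 0.214 in SZ against DZ (RPS4Y1) and 0.524 in MZ against DZ (RPL30). At an unadjusted p under 0.05, limma gave 0 members in SZ against MZ (9.57% of named genes), 3 in SZ against DZ (18.8%), 0 in MZ against DZ (10.1%) and 0 by the F test (15.2%). The 3 were RPL30, RPL38 and RPS4Y1.

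With 2 animals per zone, the intervals bound the zone differences without showing that the zones are alike. The SE of a member lay between 0.22 and 0.32 on the log2 scale, with a median of 0.25, close to the median of 0.26 over all named genes. The fitted difference was under 0.5 in size for 77 of 77 members in SZ against MZ, 71 in SZ against DZ and 74 in MZ against DZ. Of all named genes 79.9%, 68.8% and 79.6% were under 0.5 in these comparisons. The 95% interval lay within 1 log2 unit on both sides for 75, 60 and 64 of the 77 in the same order. It did so for 7047, 5888 and 7025 of the 11636 named genes.

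Over the 6 arrays, ribosomal protein genes spanned less than most genes. The range between the lowest and the highest array had a median of 0.61 over the 77 genes, and of 0.88 over all named genes. It was under 1 log2 unit for 69 of 77 members (89.6%), against 58.9% of named genes and 61.4% of the 251 other named genes with a mean log2 value of 10 or more. The genes of the mitochondrial ribosome, which translates the messages of the organelle's own genome, had a median range of 0.91 over 69 genes. In the other deposited table, whose name carries dCHIP, the median range was 0.45 for the members and 0.90 for all named genes. Bright probesets can be compressed at the top of an array's scale. The brightest member read 12.81 to 13.23 where the brightest probeset tested read 13.73 to 14.15.

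Genes with the narrowest ranges were RPS18, RPL23A and RPS26. RPS18, a small subunit protein at the head of the subunit and a common reference gene, read 12.26 and 12.19 in SZ, 12.36 and 12.32 in MZ, and 12.28 and 12.36 in DZ (animal 1 first, here and below). All 6 values lay within 0.17, and SZ minus DZ was -0.09 (95% interval -0.63 to 0.45). RPL23A, which docks the signal recognition particle at the exit of the peptide tunnel, read 12.78 and 12.85 in SZ, 13.02 and 12.76 in MZ, and 12.81 and 12.77 in DZ. Its zones overlapped, while both SZ arrays of RPS18 lay below its MZ and DZ arrays. RPS26, a small subunit protein near the exit of the messenger RNA channel, read 12.11 and 12.09 in SZ, 12.25 and 11.96 in MZ, and 12.18 and 12.08 in DZ, with both MZ arrays at the ends of the range.

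In SZ against MZ the members were centred on 0. The median difference was 0.00, against -0.02 over all named genes, with 40 of 77 members positive and a range of -0.48 to 0.41. The median was -0.05 in animal 1 and 0.07 in animal 2. It was 0.13 without the MZ array of animal 1 and -0.12 without that of animal 2, so its sign rests on single arrays. In both animals 31 of 77 members (40.3%) moved the same way, where 55.5% of named genes did. Both SZ arrays lay above both MZ arrays for 11 members (14.3%, background 17%) and below them for 8 (10.4%, background 19.3%).

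RPL22L1, a paralog of RPL22 that can replace it in the large subunit in mouse, was the member with the lowest SZ minus MZ value. It read 8.90 and 9.03 in SZ, 9.63 and 9.25 in MZ, and 9.57 and 9.50 in DZ. Both SZ arrays lay below all arrays of MZ and DZ. SZ minus MZ was -0.48 (SE 0.24, limma adjusted p = 0.673), and -0.73 and -0.22 in the single animals. SZ minus DZ was -0.56 (SE 0.24, limma adjusted p = 0.304), -0.66 and -0.47 in the single animals, and -0.59 without the DZ array of animal 1. A second, dimmer probeset of RPL22L1 gave -0.75 and -0.49 for the same comparisons, and neither was called. RPL7L1, a paralog of RPL7 that takes part in assembling the large subunit, read 7.95 and 7.75 in SZ, 8.33 and 7.93 in MZ, and 8.35 and 8.02 in DZ. Its SZ arrays lay below both DZ arrays and overlapped the MZ arrays. SZ minus DZ was -0.34 (SE 0.22, limma adjusted p = 0.496), and its other probesets gave -0.60 and -0.34.

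Among the large subunit proteins of the main ribosome, RPL13 had the lowest SZ minus MZ value, and RPL28 and RPL7A the highest. RPL13 read 10.74 and 10.59 in SZ, 10.99 and 10.92 in MZ, and 10.55 and 10.93 in DZ, so that both SZ arrays lay below both MZ arrays and the DZ arrays overlapped each (SZ minus MZ -0.29, SE 0.25). RPL28 read 10.17 and 9.80 in SZ, 9.37 and 9.78 in MZ, and 9.70 and 10.09 in DZ. SZ lay above MZ by 0.80 in animal 1 and by 0.02 in animal 2, for a fitted 0.41 (SE 0.28, limma adjusted p = 0.783). RPL7A read 10.66 and 10.58 in SZ, 10.07 and 10.51 in MZ, and 10.14 and 10.59 in DZ. Its SZ arrays lay above the MZ arrays, again mainly in animal 1 (0.59 against 0.08), and overlapped the DZ arrays.

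In SZ against DZ and in MZ against DZ more members had the higher value in the shallower zone, mainly in animal 1. The median SZ minus DZ was 0.22 over the 77 genes, against -0.01 over all named genes and 0.06 over all probesets. It was 0.34 in animal 1, with 65 of 77 positive, and 0.05 in animal 2, with 43 positive. Of the 11636 named genes 5633 were positive in animal 1 and 5722 in animal 2. The median MZ minus DZ was 0.19, against 0.02 over all named genes, with 0.38 in animal 1 (62 positive) and 0.02 in animal 2 (41 positive). Here 5998 and 5767 of the named genes were positive. Without the DZ array of animal 1 the members' medians were 0.06 and 0.03, where those of all named genes were -0.01 and 0.01. Without the DZ array of animal 2 the members' medians were 0.35 and 0.32. MZ minus DZ was also 0.08 without the MZ array of animal 1 and 0.32 without that of animal 2. In the dCHIP table the medians were 0.06 and 0.04, against -0.07 and -0.01 over all named genes. In animal 2 they were -0.07 and -0.04 there, against -0.06 and -0.02 over all named genes.

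**Figure D2:**
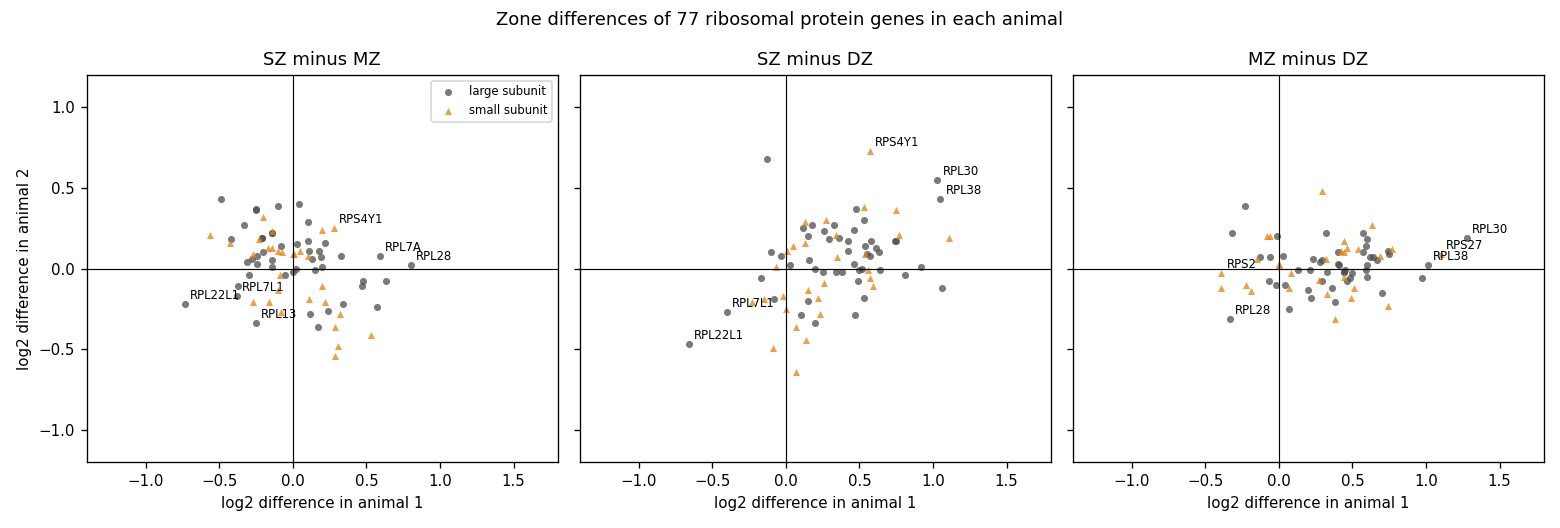
Log2 difference between zones in animal 1 (horizontal axis) and animal 2 (vertical axis) for each of the 77 genes, in 3 panels for SZ minus MZ, SZ minus DZ and MZ minus DZ. In the panels with DZ the points spread to the right of 0 but stay centred near 0 on the vertical axis, with medians of 0.34 and 0.05 for SZ minus DZ.

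Counts by single gene followed the same lines. Both SZ arrays lay above both DZ arrays for 32 members (41.6%, background 22.7%) and below them for 7 (9.09%, background 23.3%). In MZ against DZ the counts were 20 (26%, background 19.5%) and 4 (5.19%, background 17.7%). The direction was the same in both animals for 47 members (61%) in SZ against DZ and 40 (51.9%) in MZ against DZ, where 62.9% and 59.3% of named genes did so. The 7 members with SZ below DZ were RPL12, RPL13A, RPS10, RPS15, RPS18 and the paralogs RPL22L1 and RPL7L1, and among the 4 with MZ below DZ were RPS14, RPS2 and RPSA. By subunit, SZ minus DZ had a median of 0.25 over the 48 large and 0.10 over the 29 small subunit genes, and MZ minus DZ of 0.21 and 0.15. Without the DZ array of animal 1 these medians were 0.09 and -0.04 for SZ minus DZ, and 0.04 and 0.01 for MZ minus DZ. Against the DZ array of animal 2 alone, both SZ arrays lay above it for 37 of 77 members (48.1%, against 36.9% of named genes) and below it for 13 (16.9%, against 33.5%). Both MZ arrays lay above it for 27 (35.1%, against 36.1%) and below it for 13 (16.9%, against 29.5%). The difference between the subunits was not tested.

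The DZ array of animal 1 was the lowest of the 6 for 43 of 77 members (55.8%). The same array was the lowest for 19.5% of all named genes and for 39.4% of the 251 other bright genes. Against the mean of the other 5 arrays, its members lay at a median of -0.26, with 60 of 77 below (77.9%, against 47.3% of named genes and 58.6% of the other bright genes). They lay below by 0.5 or more for 20 members (26%), against 12.6% of named genes and 26.3% of the other bright genes. No member lay above by that much, where 34 of the 251 other bright genes did. All named genes had a median of 0.03 on that array and the other bright genes -0.13. In the dCHIP table the members' median was -0.08, against 0.07 over all named genes and 0.11 over the other bright genes. There 8 of 77 members lay below by 0.5 or more, where 1427 of 11636 named genes and 49 of the 251 other bright genes did. In that table the array was the lowest for 29 of 77 members, a count for which no share over all genes is given. The large subunit genes had a median of -0.35 on it and the small subunit genes -0.14. The array of the same zone in animal 2 had a median of -0.00 over the 77 genes.

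**Figure D3:**
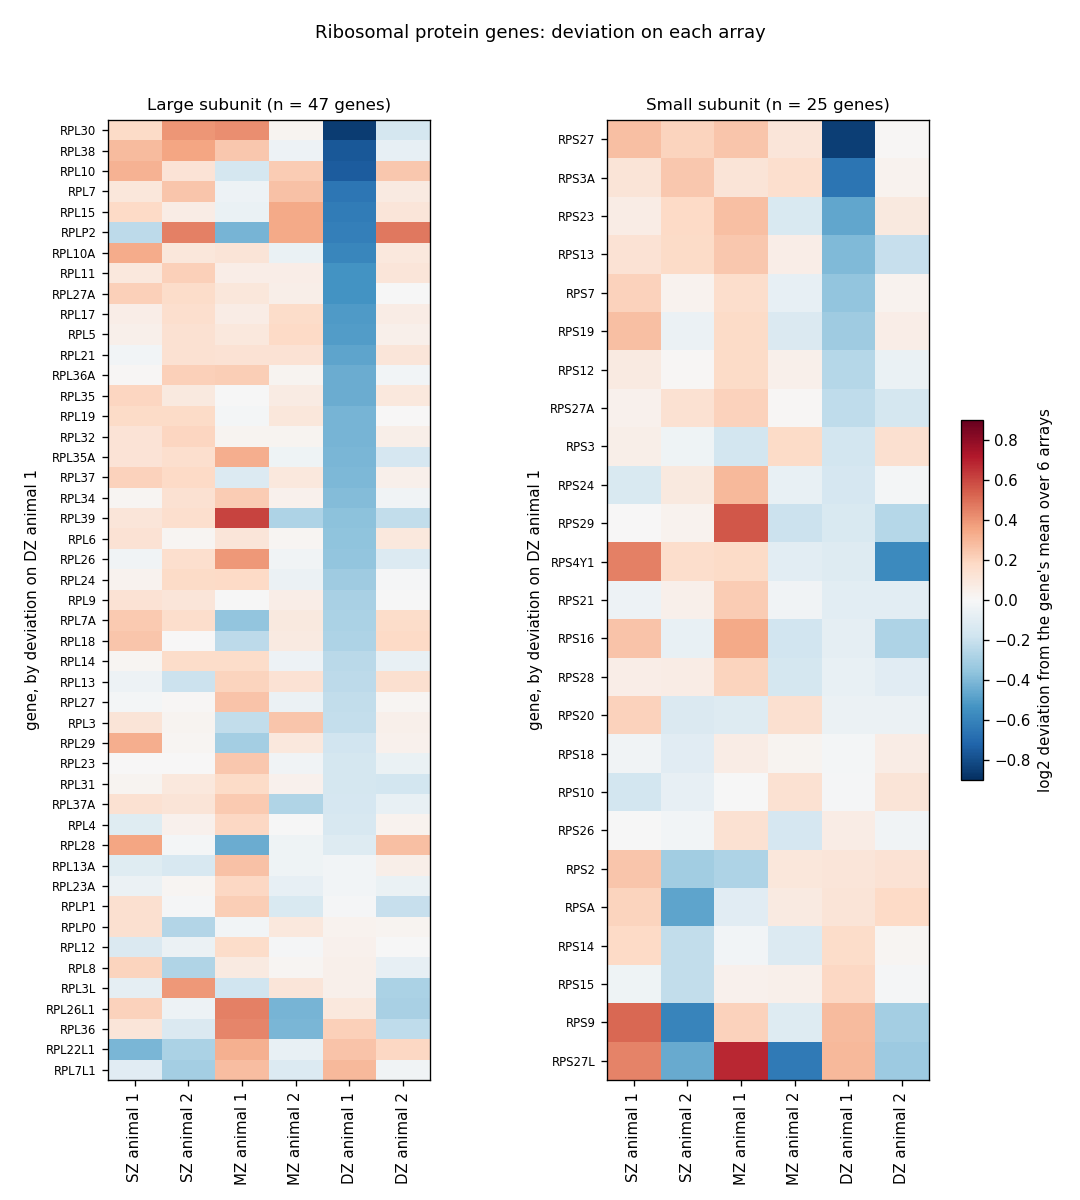
Deviation of each gene (rows, ordered by the value on the DZ array of animal 1) from its own mean over the 6 arrays (columns), in log2 units, for 47 large and 25 small subunit genes. Blue is below and red above the mean. The column of DZ animal 1 is blue for most genes, and the lowest are RPL30, RPL38, RPL10 and RPS27.

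Some control probesets also set this array apart. The mean of the BioB hybridisation controls was 6.78 on it and 9.40 to 10.78 on the others. The mean of 12 Bacillus spike-in controls was low on both DZ arrays, at 4.12 and 4.06 against 4.69 to 6.61 in SZ and MZ. For cyclophilin, the 3′ probeset minus the 5′ probeset was 3.30 on the DZ array of animal 1 and 1.69 to 2.66 on the others. For EF1A the same difference went the other way, at -4.82 against -3.93 to -3.24. For GAPDH (0.45 against -0.09 to 0.92) and eIF4E (2.67 against 2.08 to 3.02) it lay among the other arrays. The part of these differences in the ribosomal protein values was not tested.

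RPL30, RPL38 and RPS27 had the highest differences among the genes of the main ribosome. RPL30, a large subunit protein that in yeast binds its own transcript, read 11.90 and 12.12 in SZ, 12.14 and 11.75 in MZ, and 10.87 and 11.57 in DZ. Both DZ arrays lay below all others, and the one of animal 1 lay 1.03 below the mean of the other 5. SZ minus DZ was 0.79 (SE 0.31, 95% interval 0.03 to 1.55, limma adjusted p = 0.267), and 1.03 and 0.55 in the single animals. MZ minus DZ was 0.73 (SE 0.31, limma adjusted p = 0.524), and 1.28 and 0.19 in the single animals. RPL38, a large subunit protein that in mouse is needed for the translation of Hox messages in the embryo, read 12.05 and 12.12 in SZ, 12.01 and 11.72 in MZ, and 11.00 and 11.69 in DZ. SZ lay above MZ and MZ above DZ, the last by 0.02 in animal 2. SZ minus DZ was 0.74 (SE 0.30, limma adjusted p = 0.276) and MZ minus DZ 0.52 (SE 0.30, limma adjusted p = 0.652). RPS27, a zinc-finger protein of the small subunit, read 12.57 and 12.50 in SZ, 12.55 and 12.41 in MZ, and 11.45 and 12.31 in DZ. Both DZ arrays were the lowest, but only that of animal 1 lay far from the rest, and MZ minus DZ was 1.10 in animal 1 and 0.09 in animal 2. Without the DZ array of animal 1, SZ minus DZ was 0.40 for RPL30, 0.34 for RPL38 and 0.17 for RPS27, and MZ minus DZ 0.34, 0.12 and 0.11.

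RPS2, a protein of the small subunit that lines the entry of the messenger RNA path, was among the lowest in MZ minus DZ. It read 11.74 and 11.18 in SZ, 11.21 and 11.59 in MZ, and 11.60 and 11.62 in DZ. The MZ arrays lay below the DZ arrays, in animal 2 by 0.03, and its second probeset also had a negative MZ minus DZ, at -0.41. RPL28, whose values are given above, had the lowest MZ minus DZ of all members, at -0.32 (SE 0.28), with -0.33 and -0.31 in the single animals.

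**Figure D4:**
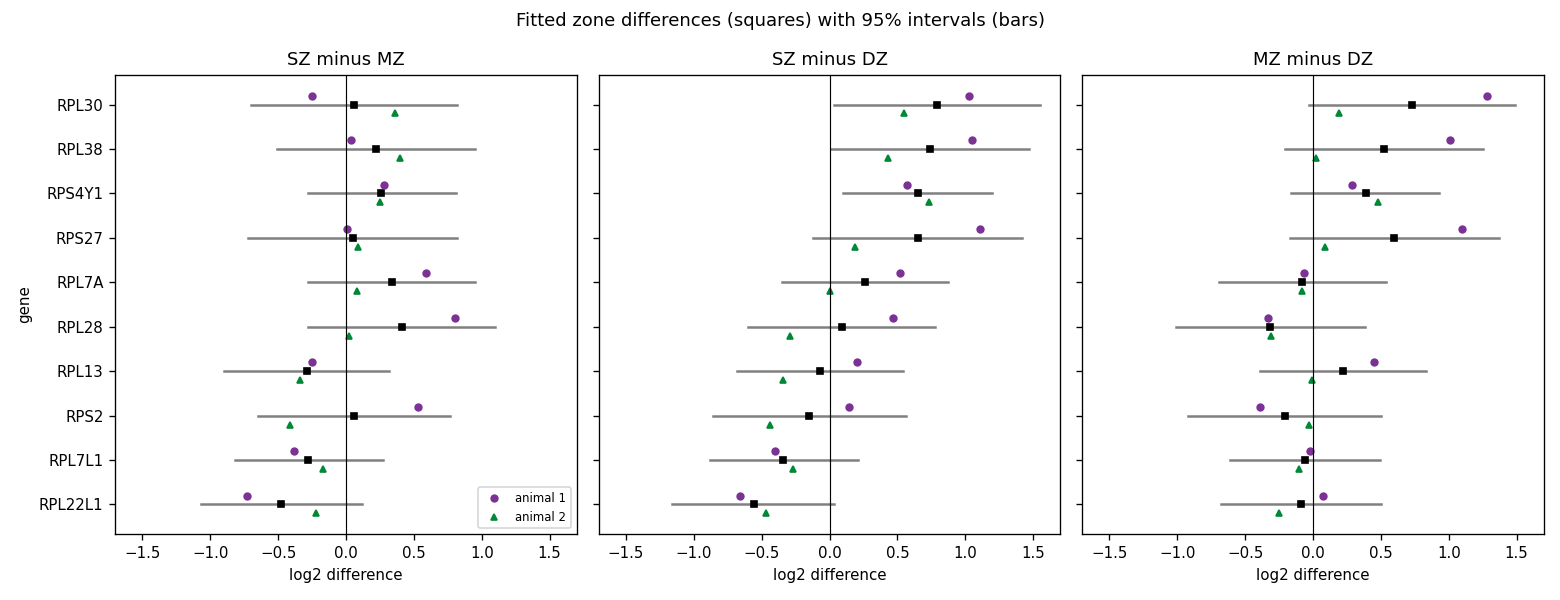
Fitted log2 differences (squares) with 95% intervals (bars) and the difference in each animal (circles for animal 1, triangles for animal 2) for 10 genes among those with the highest or lowest differences, in 3 zone comparisons. The intervals of RPL30, RPL38 and RPS4Y1 in SZ minus DZ end above 0 before adjustment over all probesets, and all others include 0.

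RPS4Y1 was the only member whose call depended on the table. This symbol names a copy of the small subunit protein RPS4 that lies on the Y chromosome in human. It read 3.36 and 3.06 in SZ, 3.08 and 2.81 in MZ, and 2.79 and 2.33 in DZ. The values lie near or below the lower quartile of the arrays, so they give no firm size. SZ minus DZ was 0.65 (SE 0.22, limma adjusted p = 0.214), 0.74 without the DZ array of animal 1, and 1.30 in the dCHIP table (limma adjusted p = 0.0282), the only member called there.

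The stalk of the large subunit, which recruits translation factors, is formed by RPLP0, RPLP1 and RPLP2. RPLP0, the base of the stalk and a common reference gene, read 11.75 and 11.34 in SZ, 11.58 and 11.70 in MZ, and 11.64 and 11.63 in DZ. The zones overlapped, and SZ minus DZ was -0.10 (SE 0.25, 95% interval -0.70 to 0.51). RPLP1 read 11.80 and 11.65 in SZ, 11.88 and 11.52 in MZ, and 11.65 and 11.45 in DZ, with each zone higher in animal 1. RPLP2 read 10.51 and 11.20 in SZ, 10.33 and 11.09 in MZ, and 10.13 and 11.22 in DZ. All arrays of animal 2 lay above all arrays of animal 1, by a mean of 0.85, while SZ minus DZ was 0.18 (SE 0.24). RPSA, a small subunit protein also known as the laminin receptor, read 10.48 and 9.81 in SZ, 10.18 and 10.36 in MZ, and 10.40 and 10.46 in DZ, where only SZ in animal 2 lay apart.

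Other genes in use as references had small zone differences, with unequal spread. RPL13A read 12.41 and 12.37 in SZ, 12.78 and 12.48 in MZ, and 12.49 and 12.57 in DZ. Both SZ arrays lay below the rest, by a fitted -0.24 against MZ and -0.14 against DZ (SE 0.23). RPL19 read 12.83 and 12.83 in SZ, 12.64 and 12.76 in MZ, and 12.24 and 12.66 in DZ, with the SZ arrays above the rest (SZ minus DZ 0.38, SE 0.24, limma adjusted p = 0.466, and 0.20 without the DZ array of animal 1). RPL4, whose long extension lines the peptide tunnel, read 12.06 and 12.21 in SZ, 12.36 and 12.17 in MZ, and 12.03 and 12.20 in DZ, with all zones overlapping. RPS9 read 9.66 and 8.55 in SZ, 9.35 and 9.03 in MZ, and 9.43 and 8.84 in DZ. Its arrays separated by animal and not by zone, with a fitted SZ minus DZ of -0.03 (SE 0.27).

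RPL5 and RPL11, which bind the smallest ribosomal RNA and can hold the ubiquitin ligase MDM2, had similar profiles. RPL5 read 12.33 and 12.42 in SZ, 12.38 and 12.46 in MZ, and 11.78 and 12.33 in DZ. RPL11 read 11.86 and 11.98 in SZ, 11.83 and 11.83 in MZ, and 11.23 and 11.88 in DZ. In each only the DZ array of animal 1 stood low. RPL10A, the protein of the mobile stalk at the tRNA exit side, read 11.27 and 11.04 in SZ, 11.05 and 10.88 in MZ, and 10.35 and 11.03 in DZ. RPS19, whose loss of 1 copy causes Diamond-Blackfan anaemia in human, read 12.23 and 11.91 in SZ, 12.13 and 11.83 in MZ, and 11.64 and 12.02 in DZ. RPL10A and RPS19 were also lowest on that array, and the DZ array of animal 2 lay within or next to the range of the SZ and MZ arrays. For RPL10A the fitted SZ minus DZ was 0.47, and 0.03 without the DZ array of animal 1. RPS3, at the entry of the messenger RNA channel, read 12.61 and 12.52 in SZ, 12.39 and 12.73 in MZ, and 12.39 and 12.70 in DZ, and SZ minus DZ was 0.02 (SE 0.24).

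The paralog pairs gave 3 kinds of profile. RPL3, at the peptidyl transferase centre, read 11.01 and 10.92 in SZ, 10.67 and 11.14 in MZ, and 10.68 and 10.94 in DZ. RPL3L, its copy in striated muscle of human and mouse, read 3.05 and 3.52 in SZ, 2.95 and 3.24 in MZ, and 3.18 and 2.85 in DZ. RPL3L read near the lower quartile in all zones, as RPS4Y1 did. RPL26, at the tunnel exit, read 11.88 and 12.06 in SZ, 12.30 and 11.88 in MZ, and 11.56 and 11.79 in DZ, and its DZ arrays lay below all others. RPL26L1 read 8.84 and 8.59 in SZ, 9.09 and 8.22 in MZ, and 8.73 and 8.34 in DZ, and separated by animal instead. RPS27L, a copy of RPS27, read 7.84 and 6.94 in SZ, 8.07 and 6.76 in MZ, and 7.69 and 7.07 in DZ. Its zones overlapped and its animals did not. RPL7, the partner of RPL7L1, read 12.49 and 12.64 in SZ, 12.34 and 12.65 in MZ, and 11.74 and 12.47 in DZ, and here SZ lay above DZ (0.46, SE 0.25, limma adjusted p = 0.409, and 0.21 without the DZ array of animal 1). RPL7 and RPL7L1 had opposite signs in SZ minus DZ, and neither passed the test.

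RPL10, a protein that joins the large subunit late in its assembly, read 12.37 and 12.18 in SZ, 11.90 and 12.29 in MZ, and 11.31 and 12.30 in DZ. The DZ array of animal 1 was 0.90 below the mean of the other 5, and DZ in animal 2 lay within the other zones. The fitted SZ minus DZ of RPL10 was 0.47, and 0.03 without that array. RPL36A read 11.79 and 11.99 in SZ, 12.00 and 11.80 in MZ, and 11.33 and 11.75 in DZ. RPL39, a short protein of the peptide tunnel, read 11.14 and 11.18 in SZ, 11.64 and 10.75 in MZ, and 10.66 and 10.81 in DZ. In both, the DZ arrays lay below the SZ arrays, and for RPL39 the MZ arrays held both the highest value and one between the DZ values. RPL17, at the tunnel exit, read 13.12 and 13.21 in SZ, 13.13 and 13.23 in MZ, and 12.55 and 13.13 in DZ. RPL37A, a zinc-binding protein, read 12.96 and 12.94 in SZ, 13.06 and 12.55 in MZ, and 12.67 and 12.76 in DZ. RPL17 again had its low value on the DZ array of animal 1, while the lowest value of RPL37A was MZ in animal 2.

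For the other 39 members, SZ minus MZ was at most 0.27 (RPL29). The lowest SZ minus DZ among them was -0.22 (RPS15), and 32 of 39 were positive, where 49.5% of named genes were. MZ minus DZ lay between -0.17 (RPS14) and 0.45 (RPS13), with 34 of 39 positive, where 51.9% of named genes were. Both SZ arrays lay above both DZ arrays for 19 of the 39, where 22.7% of named genes did so. Among the 19 were RPL9, RPL14, RPL23, RPL24, RPL27A, RPL31, RPL32, RPL34, RPL35A, RPL37, RPS3A, RPS12, RPS13, RPS16, RPS21, RPS27A, RPS28 and RPS29. The zones overlapped in this comparison, or SZ lay below, for others, such as RPL6, RPL8, RPL12, RPL15, RPL18, RPL21, RPL27, RPL29, RPL35, RPL36, RPS7, RPS10, RPS14, RPS15, RPS20, RPS23 and RPS24. RPS27A encodes its protein as a fusion with ubiquitin. RPS13 read 11.73 and 11.77 in SZ, 11.84 and 11.66 in MZ, and 11.20 and 11.39 in DZ (SZ minus DZ 0.46, SE 0.23), and its DZ arrays lay below all others in both animals. RPS3A read 12.78 and 12.91 in SZ, 12.78 and 12.82 in MZ, and 12.01 and 12.70 in DZ (0.49, SE 0.26), again with the larger gap in animal 1. Without the DZ array of animal 1, SZ minus DZ was 0.33 for RPS13 and 0.19 for RPS3A. Without that array it was -0.01 for RPL23, 0.05 for RPS12 and 0.07 for RPS28, and 0.22 for RPL31.

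A few members separated by animal. All 3 arrays of an animal lay on 1 side of those of the other for 8 of 77 members (10.4%), where 13.8% of named genes did so. RPLP2 and RPL17 were higher in animal 2, and RPL8, RPL26L1, RPL36, RPS9, RPS26 and RPS27L were lower. RPL36 read 10.23 and 9.99 in SZ, 10.56 and 9.71 in MZ, and 10.33 and 9.89 in DZ. Animal 2 minus animal 1 was 0.85 for RPLP2, -0.95 for RPS27L, -0.67 for RPS9, -0.51 for RPL36 and -0.50 for RPL26L1. In the dCHIP table it was 0.85 for RPLP2 and -0.78 for RPS27L. With 1 array per zone in each animal, a difference between animals has no replicate within a zone, and it was not tested.

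**Figure D5:**
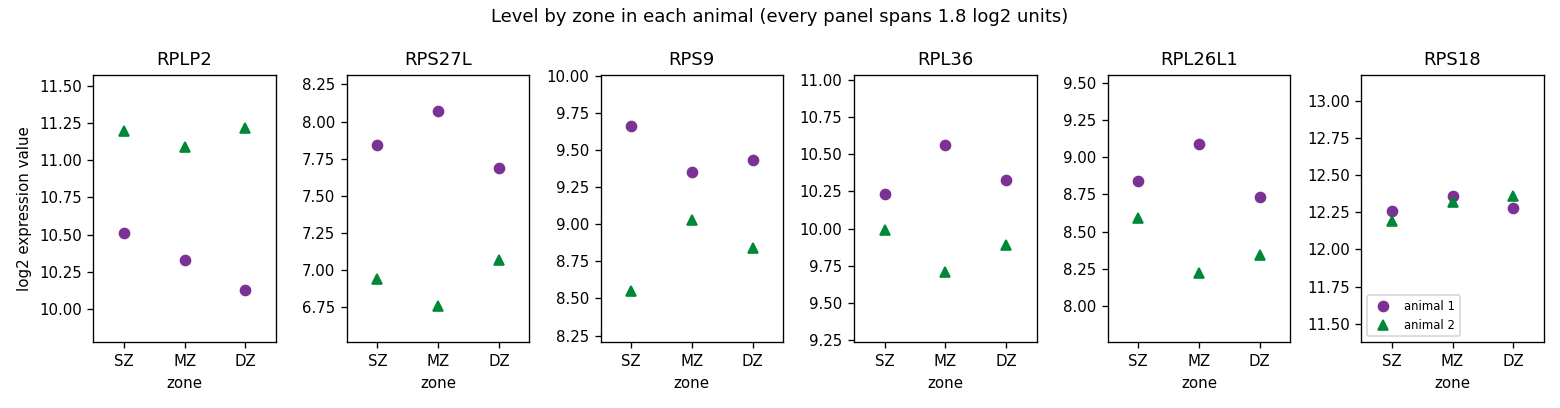
Log2 expression value (vertical axis) in SZ, MZ and DZ (horizontal axis) in animal 1 (circles) and animal 2 (triangles) for RPLP2, RPS27L, RPS9, RPL36, RPL26L1 and, as the gene with the narrowest range, RPS18. Every panel spans the same height. The animals do not overlap in the first 5 panels and lie within 0.17 of each other for RPS18.

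Several members have more than 1 probeset, and their signs were not always the same. In 17 genes with 42 probesets, the 25 dimmer probesets had the sign of the one used in 13 cases for SZ minus MZ, 19 for SZ minus DZ and 19 for MZ minus DZ, and 0 of the 42 were called by limma. Sizes differed as well, by up to 0.99 in SZ minus DZ. RPS7 had 0.28 on the probeset used and 0.94, -0.71 and 0.36 on its 3 dimmer ones, and RPL10 had 0.47 and 0.95. Ribosomal protein genes have many processed pseudogene copies in mammals, and a probeset can read closely similar transcripts, so a value is that of the probeset and may include such copies.

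Other genes of translation were read in the same fit. Of all named genes 0.0344% were called in SZ minus MZ, 3.24% in SZ minus DZ and 0.902% in MZ minus DZ. At an unadjusted limma p under 0.05 these shares were 9.57%, 18.8% and 10.1%, as a background for the counts below. Of 21 elongation factors and further genes with a pyrimidine tract, 0 were called in each comparison (limma; unadjusted p under 0.05 for 1 in SZ minus MZ, 5 in SZ minus DZ and 1 in MZ minus DZ). Their median differences were 0.13, 0.25 and 0.16 in the same order, beside 0.00, 0.22 and 0.19 for the ribosomal proteins. As for the ribosomal proteins, the medians against DZ were higher in animal 1 (0.51 and 0.28) than in animal 2 (0.10 and 0.06), and they were 0.13 and 0.05 without the DZ array of animal 1. Of 33 translation initiation factors, 0 were called (unadjusted 1, 6 and 1), with medians of 0.13, 0.19 and 0.02 (0.07 and -0.05 against DZ without that array). Of 70 ribosome biogenesis genes, which process ribosomal RNA and assemble subunits, 0 were called (unadjusted 2, 12 and 1), with medians of -0.06, -0.06 and 0.00 (-0.24 and -0.08 without it). Of 24 regulators of ribosome synthesis such as MYC and MTOR, 0 were called (unadjusted 1, 5 and 1), with medians of -0.09, -0.16 and -0.04 (-0.10 and 0.05 without it). Of 69 mitochondrial ribosomal proteins, 1 was called, in SZ against DZ, and the unadjusted counts were 5, 9 and 5, with medians of -0.04, -0.02 and -0.10 (-0.09 and -0.12 without it). It was MRPS6, a small subunit protein of the mitochondrial ribosome, which read 8.97 and 8.39 in SZ, 10.30 and 10.25 in MZ, and 10.16 and 10.23 in DZ. Both SZ arrays lay below all others, and SZ minus DZ was -1.52 (SE 0.26, limma adjusted p = 0.0423).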

How the data were processed

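The deposited value table holds 1 log2 value per probeset and array. The submitters' processing notes name RMA, with no version, and other settings are not given in the sources used here. A second deposited table whose name carries dCHIP, also log2, gave gene symbols and served as an alternative. Neither holds detection calls. Of 24128 probesets, 112 controls were left out, and 961 symbols were updated through RefSeq synonyms (ARS-UCD2.0). No genome or sequence was used here.

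Zones were compared in limma 3.58.1 (R 4.3.3) with zone and a block for animal over all 6 arrays (residual degrees of freedom 2, prior 4.15), two-sided, Benjamini-Hochberg over 24016 probesets. The number of arrays limits the precision. Same-numbered arrays are of the same animal per the labels. Across probesets, which are not replicates, the difference between animals correlated at r = 0.259 (SZ with MZ), 0.216 (SZ with DZ) and 0.346 (MZ with DZ). The procedure was tested on simulated data.

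Members and lists were chosen with earlier results of these data known. The rule for naming took 38 members, of which some are not reported here: those called; the 3 highest and 3 lowest per comparison that moved alike in both animals; stalk proteins and RPSA; paralog pairs; reference genes; members with known roles; and extremes of level and range. RPL36, RPS3A and RPS13 were named after their values were seen. Alternatives were the dCHIP table, no animal block, a filter on dim probesets, median centring, quantile normalisation, a variance trend, the mean of a gene's probesets, no paralogs, and leaving out each array.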

Additional observations from a re-analysis of the deposited data

How the results depend on the processing

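The 0 of 77 called in each comparison and by the F test was also found under the 14 alternatives run, except that the dCHIP table called 1 member (RPS4Y1) in SZ against DZ. Without the replicate block for animal the median differences were 0.00, 0.22 and 0.19 with 0 called, so the block changed no call. Leaving out each array moved the median SZ minus MZ between -0.12 and 0.13, SZ minus DZ between 0.06 and 0.35, and MZ minus DZ between 0.03 and 0.32. Rescaling gave 0.25 (median centring) and 0.18 (quantile) for SZ minus DZ and 0.21 and 0.15 for MZ minus DZ. Of 1572 values of single named members under these settings, 1462 lay within 1 SE of the value given, 109 moved further, 1 passed the test and 147 had another sign. The values of lists, LOC probesets and non-overlap counts without the DZ array of animal 1 were chosen after seeing the data. The cause was not tested. Neither table gives a background measure, so it is unknown which dim probesets carry signal.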

Other observations

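A further 13 probesets carry titles that call them ribosomal proteins, or similar to one, under LOC symbols, and so lie outside the symbol rule. They were chosen after their titles were seen. LOC616893 and LOC781416 are both titled similar to S15a. SZ minus DZ was positive for 13 of 13 (55.7% of all probesets), with a median of 0.61 and a range of 0.20 to 1.49. MZ minus DZ was positive for 13 of 13 (57.1% of all probesets), with a median of 0.51. For LOC783533, LOC524507 and LOC514651 some values lay near the lower quartile of the arrays, and they give no firm size of a difference. The DZ array of animal 1 lay below the mean of the other 5 for all 13, with values between -1.30 and -0.29. Without that array the medians were 0.48 and 0.40, with 12 of 13 positive in each comparison. SZ minus MZ had a median of 0.09, with 9 positive. LOC100336099, titled ribosomal protein L19-like, read 6.84 and 7.38 in SZ, 6.79 and 6.84 in MZ, and 5.46 and 5.78 in DZ (animal 1 first). Both DZ arrays lay below all others, and SZ minus DZ was 1.49 (SE 0.24, limma adjusted p = 0.0368). This was the only call among the 13, where 2.75% of all probesets were called in SZ against DZ. LOC100336099 was also called in the dCHIP table, at 1.59 (limma adjusted p = 0.0191), and SZ minus DZ was 1.48 without the DZ array of animal 1. LOC616065, titled L22-like, read 12.07 and 12.24 in SZ, 12.21 and 11.81 in MZ, and 10.63 and 11.33 in DZ, and SZ minus DZ was 1.17 (SE 0.31, limma adjusted p = 0.128), and 0.76 without that array. Probesets titled S6-like (LOC787914), S25-like (LOC785691) and similar to S15a (LOC616893) had SZ minus DZ of 0.20, 0.59 and 0.40 (SE 0.25, 0.29 and 0.26), none called, and -0.04, 0.19 and 0.11 without it.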
